A study of Homo sapiens with 4 samples.

Results

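Interferon-stimulated genes (ISGs) were followed in MV3 melanoma spheroids, in the core and in the invasion zone around it. The set of 42 genes was chosen by name, and all 42 matched a row of the deposited table of 56304 genes. It holds 4 transcription factors, 4 nucleic acid sensors, 16 intracellular antiviral effectors, 4 membrane restriction factors, 6 genes of the ISG15 and ADP-ribosylation systems and 8 further interferon-induced genes. MV3 is an established, highly metastatic human melanoma line, and all 4 libraries came from the H2B-GFP derivative, in which a fluorescent histone marks the nuclei. Spheroids were embedded in collagen I, and on day 2 the core was punched out before the surrounding collagen with the invading cells was taken with a wider punch. There were 2 untreated libraries of the core and 2 of the invasion zone, numbered replicate 1 and replicate 2 in each zone. Cells that had invaded upwards or downwards may have been taken with the core by the punch, and the sources used here do not state how many spheroids entered a library.

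Interferons are secreted proteins that bind receptors on the producing cell and its neighbours. The receptors activate the kinases JAK1, JAK2 and TYK2, and type I interferons then drive assembly of the complex ISGF3, which includes STAT2 and IRF9. ISGF3 binds the interferon-stimulated response element (ISRE) in the promoters of ISGs, whereas type II interferon acts mainly through GAS elements. Many ISG products block steps of viral replication, and others sense viral RNA or DNA and so feed back on the response. Tumor cells can keep a low level of this program active without infection.

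Promoter sequences that match the ISRE or GAS type are described first, since all members were placed in the set for their response to interferon. RefSeq promoter windows of 300 bases (250 before and 50 after the start site, GRCh38.p14) were matched for 34 of the 42 members. An ISRE-type core, taken as 2 copies of GAAA with any 2 bases between them on either strand, was found in 21 of the 34 windows (61.8%), compared with 996 of 27305 promoters of the same length over all genes (3.65%). A GAS-type core, TTCNNNGAA, which reads the same on both strands, was found in 9 of the 34 (26.5%) and in 2152 of all promoters (7.88%). The 2 motifs can overlap. The 4 promoters printed here belong to IFIT1, which was called in the paired fit, to IFIT5, its neighbour on chromosome 10 with a small difference, and to the abundant genes ISG15 and IFITM3. Capitals mark the ISRE-type cores, and each sequence is written 5′ to 3′ in the direction of its gene.
IFIT1 promoter (chr10:89392373-89392672, plus strand): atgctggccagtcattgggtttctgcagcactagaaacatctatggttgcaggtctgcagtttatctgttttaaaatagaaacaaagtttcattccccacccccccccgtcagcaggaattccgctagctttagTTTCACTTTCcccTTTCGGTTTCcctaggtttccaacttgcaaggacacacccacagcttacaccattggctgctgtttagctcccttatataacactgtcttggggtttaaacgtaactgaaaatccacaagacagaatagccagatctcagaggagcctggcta
IFIT5 promoter (chr10:89414318-89414617, plus strand): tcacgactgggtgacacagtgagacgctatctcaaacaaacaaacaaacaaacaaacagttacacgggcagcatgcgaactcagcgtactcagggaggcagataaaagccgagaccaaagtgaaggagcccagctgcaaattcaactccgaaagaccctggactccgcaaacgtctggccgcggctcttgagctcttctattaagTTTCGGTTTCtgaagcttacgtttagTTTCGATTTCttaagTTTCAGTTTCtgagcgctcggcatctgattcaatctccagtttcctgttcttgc
ISG15 promoter (chr1:1013247-1013546, plus strand): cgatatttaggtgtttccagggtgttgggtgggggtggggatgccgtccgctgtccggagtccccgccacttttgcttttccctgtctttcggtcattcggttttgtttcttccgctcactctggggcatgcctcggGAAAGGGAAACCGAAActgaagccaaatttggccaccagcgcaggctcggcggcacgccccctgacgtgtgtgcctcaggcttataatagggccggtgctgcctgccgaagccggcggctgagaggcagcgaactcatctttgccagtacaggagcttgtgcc
IFITM3 promoter (chr11:320811-321110, minus strand): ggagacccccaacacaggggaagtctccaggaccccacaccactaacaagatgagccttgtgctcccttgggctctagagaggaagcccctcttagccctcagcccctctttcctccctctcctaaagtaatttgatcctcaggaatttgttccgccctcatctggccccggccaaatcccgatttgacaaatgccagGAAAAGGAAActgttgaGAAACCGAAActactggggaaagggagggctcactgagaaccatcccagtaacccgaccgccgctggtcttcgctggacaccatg

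Windows of 30 bases around 1 core each are added to show the match in members with small and with large zone differences. With the replicate as a block, the first 3 genes were under 2-fold and the last 3 past it. The capitals are alike because the search required it, and in IFI44, as in IFIT1 and IFIT5, the core lies on the opposite strand.
IFI44 (chr1:78649761-78649790, plus strand): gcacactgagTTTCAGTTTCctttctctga
BST2 (chr19:17405741-17405770, minus strand): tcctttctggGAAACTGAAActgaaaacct
SAMD9 (chr7:93118096-93118125, minus strand): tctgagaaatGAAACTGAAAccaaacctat
DDX60 (chr4:168318821-168318850, minus strand): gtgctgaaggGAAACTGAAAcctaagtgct
ISG20 (chr15:88638937-88638966, plus strand): taacaaactaGAAACTGAAAcagggtcggg
MX1 (chr21:41420559-41420588, plus strand): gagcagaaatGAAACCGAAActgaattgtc

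Libraries held 36363358 and 37591782 counts in replicate 1 (core and invasion zone) and 14983135 and 11789243 counts in replicate 2, so that the invasion zone library of replicate 2 was the shallowest. The RNA was amplified from low input. Levels are given as CPM, that is counts scaled to the library total, corrected for library composition by the trimmed mean of M values. Melanocytic markers were nearly absent, with SOX10 and TYR at 0 counts in every library. MITF, the melanocyte lineage factor, was at 1.71 to 3.36 CPM. The listed markers of dedifferentiated melanoma cells differed among themselves. The receptor AXL had 633 and 628 CPM in the core and 1222 and 1120 CPM in the invasion zone. SOX9 was at 123 to 163 CPM, whereas NGFR, also a receptor, had at most 2 counts in a library. The 6 leukocyte markers together reached 1.95 and 1.39 CPM in the core and 0.400 and 0.420 CPM in the invasion zone. CD3E was at 0 counts in all libraries, PTPRC at no more than 7, and most of the sum came from CD14, with 49 and 16 counts in the core and 11 and 4 in the invasion zone. CD14 was the 1 leukocyte marker with enough counts to test, and it was called lower in the invasion zone with the replicate as a block (log2 fold change -2.02, SE 0.52, adjusted p = 0.0148, edgeR). The paper describes no cells other than MV3 in these cultures, and the source of the marker counts was not tested.

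Every ISG that could be tested had a lower fitted level in the invasion zone. The zones were compared by the quasi-likelihood test of edgeR over 15529 genes with enough counts. Of the 42 ISGs, 41 were among them, and the exception was CMPK2, a mitochondrial nucleotide kinase, with 2 counts in 1 invasion zone library and 0 in the others. The log2 fold change (invasion zone over core) was negative for 41 of 41 ISGs, compared with 7874 of the 15529 genes tested. Its median over the ISGs was -0.93, with a range from -1.61 to -0.06, compared with a median of -0.01 over all genes tested. The level was at least 2-fold lower in 18 of the 41, compared with 1377 of the 15529. For 29 of 41 ISGs (70.7%) the zones did not overlap, with the 2 invasion zone libraries below the 2 of the core, compared with 30.3% of all genes tested. The invasion zone library of replicate 2 was the lowest of the 4 for 41 of 41 ISGs, compared with 36.6% of all genes. In bulk RNA, fewer cells that express a gene and less RNA of that gene per cell cannot be told apart.

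A gene was called when its p-value adjusted by the Benjamini-Hochberg method was under 0.05 and its change at least 2-fold. Without a term for the replicate, 0 of 41 ISGs were called (edgeR), at adjusted p from 0.128 to 0.911, and 0% of all genes tested were called lower. With the p-value left unadjusted and the fold minimum kept, 7 ISGs were lower (17.1% of the 41), compared with 5.85% of all genes tested. DESeq2 without a replicate term called 7 ISGs lower (17.1%), compared with 3.53% of all genes, namely STAT2, IRF1, IRF7, IFIT2, OASL, ISG20 and PARP9, and limma voom called 0. With the replicate number as a block, which compares the zones within each replicate, edgeR called 20 ISGs lower (48.8%) and 0 higher, where 7.06% of all genes were called lower and 3.41% higher. With the block but no fold minimum, 32 ISGs were lower (78%), compared with 19.4% of all genes. The block also left 10 ISGs called lower in DESeq2 (24.4%, all genes 4.71%).

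The size of the difference depended on single libraries. Without the invasion zone library of replicate 2, the median log2 fold change was -0.45 and 38 of 41 ISGs had a negative value. In this fit 0 of 41 ISGs were called (edgeR), where 0.863% of all genes were called lower. Without the invasion zone library of replicate 1, the median was -1.60 and 29 ISGs were called lower (70.7%), where 7.21% of all genes were. Without the core library of replicate 1, the median was -0.60 and 39 ISGs had a negative value. Where a zone had 1 library left, its spread was taken from the other zone. In the plot of levels by library, the invasion zone library of replicate 2 is the leftmost point of each gene.

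**Figure D1:**
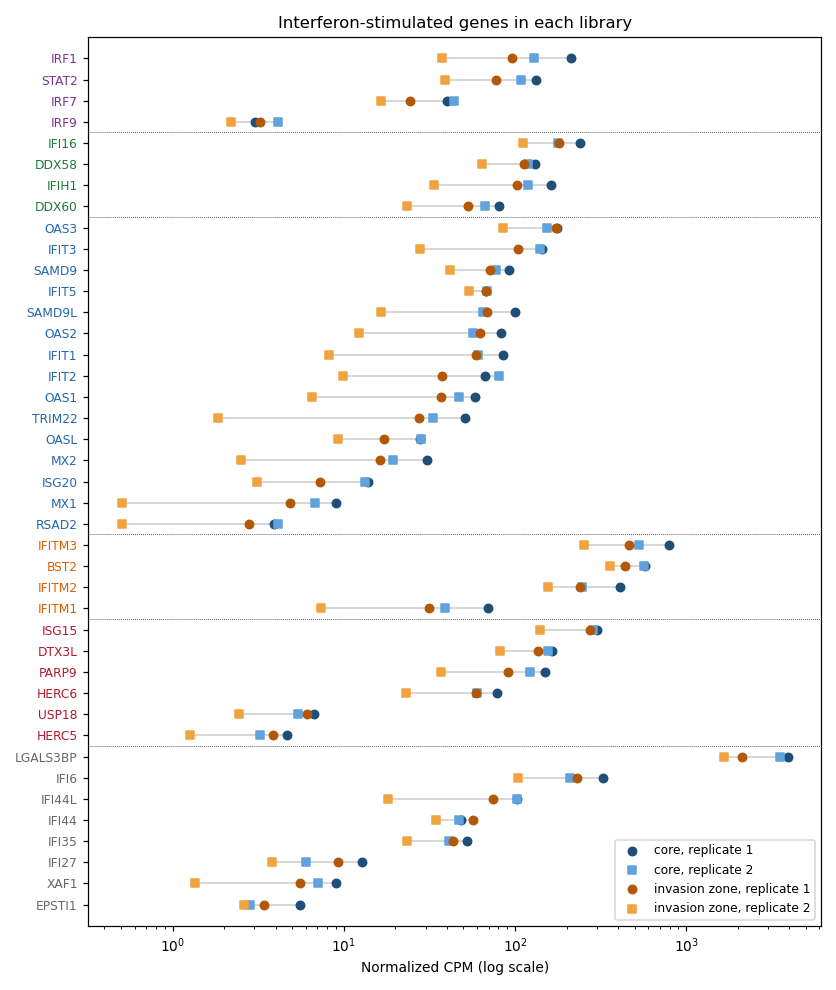
Normalized CPM on a log axis for 41 ISGs (CMPK2, with 2 counts in all, is left out), with 1 point per library: circles are replicate 1, squares are replicate 2, blue is core and orange is invasion zone. Genes are grouped by role and ordered by mean level, and the invasion zone library of replicate 2 is the lowest in every row.

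The transcription factors of the set include STAT2 and IRF9 of ISGF3, IRF7, which amplifies type I interferon production, and IRF1, which responds to both interferon types. IRF1 had 211 and 129.8 CPM in the core libraries of replicates 1 and 2 and 95.4 and 37.3 CPM in those of the invasion zone. STAT2 had 133 and 109 CPM in the core and 77.3 and 39.3 CPM in the invasion zone, and IRF7 had 40.2 and 44.1 CPM in the core and 24.2 and 16.6 CPM in the invasion zone. The zones did not overlap for any of these 3 genes. With the replicate block they were called, with log2 fold changes of -1.45 (SE 0.14, adjusted p = 0.000154) for IRF1, -1.10 (SE 0.15, adjusted p = 0.000596) for STAT2 and -1.03 (SE 0.16, adjusted p = 0.00118) for IRF7. Values in parentheses after a gene are from here on log2 fold changes in this fit unless another is named. Without the block, IRF7 was at -1.04 (SE 0.22, adjusted p = 0.130) and STAT2 at -1.04 (SE 0.33, adjusted p = 0.159), and without the invasion zone library of replicate 2 they were at -0.80 and -0.64. IRF9, the DNA-binding partner in ISGF3, was low, with 3.01 and 4.11 CPM in the core and 3.22 and 2.19 CPM in the invasion zone, so that the zones overlapped (log2 fold change -0.31, SE 0.32, adjusted p = 0.495 with the block). In the GENCODE annotation, 2805 of the 12265 exonic bases of IRF1 lie opposite other genes and 1544 of the 6471 of IRF9 are shared with a gene on the same strand, so their counts are less certain.

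The sensors detect foreign nucleic acid in the cell. DDX58 (RIG-I) and IFIH1 (MDA5) recognize viral RNA and signal to interferon genes, DDX60 assists RNA sensing, and IFI16 binds DNA. IFIH1 showed the largest difference of the 4, with 161 and 119 CPM in the core libraries of replicates 1 and 2 and 103 and 33.8 CPM in those of the invasion zone. DDX60 followed, with 81.0 and 66.4 CPM in the core and 53.2 and 23.3 CPM in the invasion zone. These 2 genes were called with the block, at -1.19 (SE 0.22, adjusted p = 0.00298) and -1.01 (SE 0.18, adjusted p = 0.00260). DDX58 had 131 and 119 CPM in the core and 112 and 64.1 CPM in the invasion zone, and IFI16 had 241 and 179 CPM in the core and 179.8 and 112 CPM in the invasion zone. For both genes the core of replicate 2 and the invasion zone of replicate 1 were at nearly the same level. They passed the adjusted threshold with the block but stayed under 2-fold, at -0.54 (SE 0.14, adjusted p = 0.0150) for DDX58 and -0.54 (SE 0.09, adjusted p = 0.00140) for IFI16. A further gene on the same strand shares 4471 of the 10345 exonic bases of DDX58.

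Of the 16 intracellular effectors, 15 were tested and 11 were called lower with the block (73.3%, all genes 7.06%). In the other roles, 3 of 4 transcription factors (75%), 2 of 4 sensors (50%) and 1 of 4 membrane factors (25%) were called lower. So were 1 of 6 genes of the ISG15 and ADP-ribosylation systems (16.7%) and 2 of 8 further genes (25%). The median log2 fold change of the effectors without the block was -1.10. The IFIT proteins bind viral RNA ends. IFIT2 had 67.2 and 80.6 CPM in the core libraries of replicates 1 and 2 and 37.6 and 9.92 CPM in those of the invasion zone. IFIT1 had 84.8 and 60.8 CPM in the core and 58.9 and 8.24 CPM in the invasion zone, and IFIT3 had 144 and 140.1 CPM in the core and 104 and 27.7 CPM in the invasion zone. In all 3, the invasion zone library of replicate 1 was below the core and that of replicate 2 was lower still. With the block the log2 fold changes were -1.74 (SE 0.39, adjusted p = 0.00738) for IFIT2, -1.45 (SE 0.41, adjusted p = 0.0214) for IFIT1 and -1.32 (SE 0.34, adjusted p = 0.0143) for IFIT3. IFIT5, which lies 8080 bases beyond IFIT1 on chromosome 10, had 68.0 and 68.6 CPM in the core and 67.6 and 53.6 CPM in the invasion zone. Its log2 fold change with the block was -0.17 (SE 0.11, adjusted p = 0.241). Of the promoters printed above, its own holds 3 ISRE-type cores and that of IFIT1 holds 2. IFIT2 shares 524 of its 4326 exonic bases with another gene on its strand.

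The oligoadenylate synthetases OAS1, OAS2 and OAS3 sense double-stranded RNA and make a second messenger of antiviral defense, and OASL is a related protein that acts with RIG-I. OAS1 had 58.6 and 46.8 CPM in the core and 37.1 and 6.56 CPM in the invasion zone. OAS2 had 82.8 and 56.9 CPM in the core and 62.3 and 12.2 CPM in the invasion zone. OASL had 27.9 and 28.4 CPM in the core and 17.2 and 9.25 CPM in the invasion zone. All 3 were called with the block, at -1.49 (SE 0.38, adjusted p = 0.0133) for OAS1, -1.16 (SE 0.32, adjusted p = 0.0204) for OAS2 and -1.08 (SE 0.20, adjusted p = 0.00298) for OASL, although for OAS2 the zones overlapped. OAS3 is next to OAS1 and OAS2 on chromosome 12 and had the highest mean CPM of the effectors, with 175 and 153 CPM in the core and 174 and 85.3 CPM in the invasion zone. Its first invasion zone library was level with the core, and it was not called (-0.40, SE 0.16, adjusted p = 0.0830).

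TRIM22, a restriction factor of the TRIM family, showed the largest zone difference of any ISG within replicate 2. It had 51.0 and 33.1 CPM in the core libraries of replicates 1 and 2 and 27.5 and 1.85 CPM in those of the invasion zone, and its log2 differences were -0.89 within replicate 1 and -4.10 within replicate 2. MX1 and MX2 are dynamin-like GTPases that act on viral nucleocapsids. MX2 had 30.4 and 19.5 CPM in the core and 16.3 and 2.52 CPM in the invasion zone. MX1 had 9.01 and 6.82 CPM in the core and 4.85 and 0.504 CPM in the invasion zone, where the last value stands for 6 counts. All 3 were called with the block, at -1.83 (SE 0.49, adjusted p = 0.0170), -1.56 (SE 0.35, adjusted p = 0.00738) and -1.60 (SE 0.45, adjusted p = 0.0217) for TRIM22, MX2 and MX1. ISG20, an RNA exonuclease, had 13.9 and 13.3 CPM in the core and 7.30 and 3.11 CPM in the invasion zone, and the block fit gave -1.36 (SE 0.26, adjusted p = 0.00368). SAMD9L and SAMD9 are neighbours on chromosome 7 that limit poxvirus growth. SAMD9L had 100.3 and 65.3 CPM in the core and 68.2 and 16.6 CPM in the invasion zone, and SAMD9 had 92.4 and 77.4 CPM in the core and 71.2 and 41.9 CPM in the invasion zone. The first was called (-1.17, SE 0.26, adjusted p = 0.00762) with overlapping zones, and the second passed the adjusted threshold under 2-fold (-0.61, SE 0.12, adjusted p = 0.00481). RSAD2 (viperin), which makes an antiviral nucleotide, was not called (-1.21, SE 0.47, adjusted p = 0.0735). It was low, at 6 counts in the invasion zone library of replicate 2, and CMPK2, which overlaps it on the opposite strand, was at or near 0 throughout.

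The membrane factors were abundant. IFITM proteins hinder fusion of enveloped viruses with the cell, and BST2 (tetherin) holds budding virus at the surface. IFITM3 had 789 and 528 CPM in the core libraries of replicates 1 and 2 and 462 and 252 CPM in those of the invasion zone. IFITM2 had 411 and 247 CPM in the core and 239 and 155 CPM in the invasion zone. IFITM1, which sits mostly at the plasma membrane, had 69.8 and 39.0 CPM in the core and 31.5 and 7.31 CPM in the invasion zone. In all 3, replicate 2 was below replicate 1 in the core as well as in the invasion zone. IFITM1 was called with the block (-1.63, SE 0.24, adjusted p = 0.000873), whereas IFITM3 (-0.92, SE 0.09, adjusted p = 0.000143) and IFITM2 (-0.73, SE 0.07, adjusted p = 0.000192) passed the adjusted threshold under 2-fold. For IFITM2 the zone difference was similar in both replicates, with log2 differences of -0.78 within replicate 1 and -0.67 within replicate 2. The IFITM genes are close paralogs on chromosome 11, and only uniquely mapped reads were counted, so their values are less certain. BST2 had 573 and 565 CPM in the core and 437 and 361 CPM in the invasion zone, and passed the adjusted threshold under 2-fold (-0.52, SE 0.08, adjusted p = 0.00146).

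ISG15 is a ubiquitin-like protein that is attached to other proteins, with HERC5 as its main human ligase and USP18 as the protease that removes it. ISG15 had 302 and 284 CPM in the core libraries of replicates 1 and 2 and 275 and 141 CPM in those of the invasion zone. The last of these 4 values stood apart, and the log2 fold change was -0.56 (SE 0.17, adjusted p = 0.0278) with the block and -0.09 without that library. USP18 and HERC5 were low, under 7 CPM in every library, and neither passed the adjusted threshold, at -0.50 (SE 0.28, adjusted p = 0.194) for USP18 and -0.63 (SE 0.33, adjusted p = 0.164) for HERC5. HERC6, a relative of HERC5, passed it under 2-fold (-0.84, SE 0.19, adjusted p = 0.00828). PARP9 and DTX3L are partners in an ADP-ribosylation and ubiquitin ligase complex, are transcribed in opposite directions and share 139 exonic bases. PARP9 had 149 and 123 CPM in the core and 91.1 and 37.2 CPM in the invasion zone, and DTX3L had 164 and 156 CPM in the core and 137 and 81.5 CPM in the invasion zone. PARP9 was called (-1.18, SE 0.19, adjusted p = 0.00166), and DTX3L passed the adjusted threshold under 2-fold (-0.59, SE 0.14, adjusted p = 0.0101).

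Among the remaining ISGs, LGALS3BP, a secreted glycoprotein that binds galectins, was the most abundant. It had 3920.2 and 3517 CPM in the core libraries of replicates 1 and 2 and 2128 and 1652 CPM in those of the invasion zone. The zones did not overlap, and the log2 fold change stayed just under 2-fold in size, at -0.98 (SE 0.19, adjusted p = 0.128) without the block, -0.99 (SE 0.08, adjusted p = 8.66e-05) with it and -0.81 without the invasion zone library of replicate 2. IFI6, a mitochondrial and ER membrane protein that blocks apoptosis and flavivirus replication, had 328 and 209.7 CPM in the core and 231 and 103 CPM in the invasion zone. The zones of IFI6 overlapped, and it passed the adjusted threshold under 2-fold with the block (-0.75, SE 0.12, adjusted p = 0.00117). IFI44L had 103 and 102 CPM in the core and 74.5 and 18.2 CPM in the invasion zone, and IFI44, which starts 3650 bases beyond it on chromosome 1, had 48.3 and 47.0 CPM in the core and 56.5 and 34.5 CPM in the invasion zone. Of these related genes, IFI44L was called (-1.36, SE 0.36, adjusted p = 0.0174), and IFI44 had the smallest log2 fold change of the set (-0.08, SE 0.15, adjusted p = 0.699), above the core in replicate 1. XAF1, which promotes apoptosis, had 9.01 and 7.09 CPM in the core and 5.57 and 1.34 CPM in the invasion zone and was called (-1.24, SE 0.34, adjusted p = 0.0204), but PRAL, a gene on the opposite strand, covers 2535 of its 6615 exonic bases. IFI6 likewise shares 216 of its 936 exonic bases with LINC02574 on its own strand. IFI27, a mitochondrial protein, had 12.7 and 6.03 CPM in the core and 9.20 and 3.78 CPM in the invasion zone, with overlapping zones and no call (-0.54, SE 0.19, adjusted p = 0.0538). IFI35, which binds the transcription regulator NMI, passed the adjusted threshold under 2-fold (-0.52, SE 0.14, adjusted p = 0.0164), and EPSTI1, the remaining gene, did not pass it (-0.49, SE 0.28, adjusted p = 0.205).

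**Figure D2:**
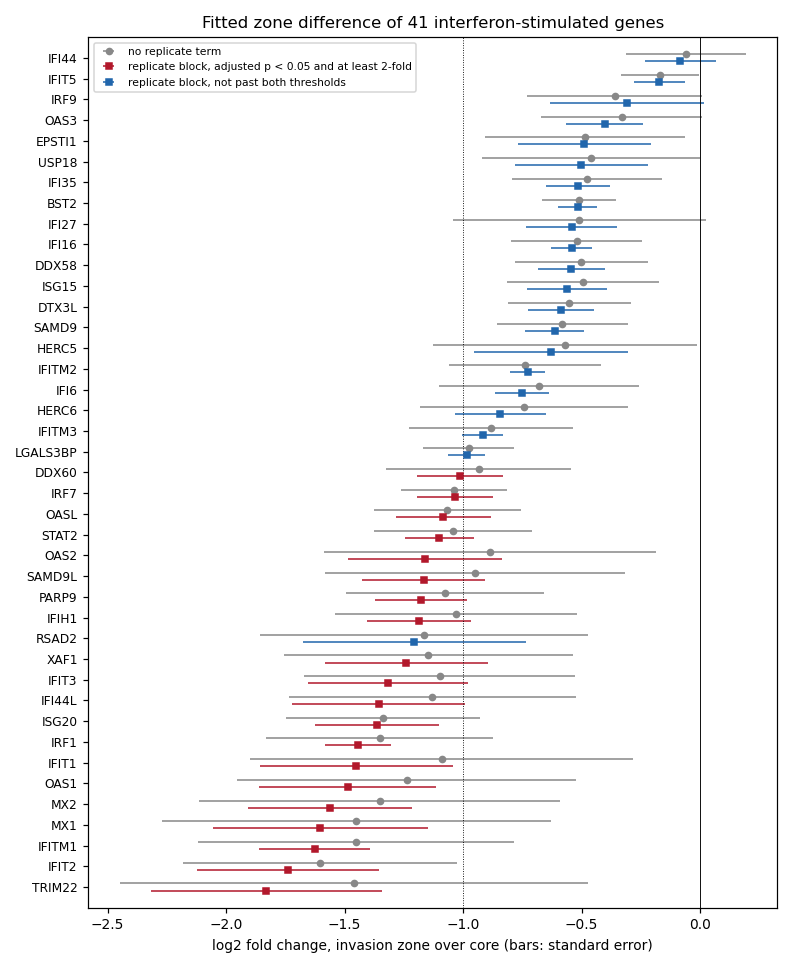
Fitted log2 fold change (invasion zone over core), with standard errors as bars, for the 41 ISGs tested, ordered by the fit with the replicate block. Grey circles are the fit without a replicate term, squares the fit with the block (red where the gene was called, 20 genes), and the dotted line marks a 2-fold lower level.

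Levels per kilobase of exon, a rough scale for comparing genes with each other, ranged widely. The length was that of all annotated exons of a gene together, 17984 bases for MX1 and 1101 for BST2. Genes with many annotated exons therefore read lower than they would per transcript, and the order depends partly on the annotation. Mean core levels were 1087 CPM per kilobase for LGALS3BP, 517 for BST2, 338 for ISG15, 287 for IFI6, 231 for IFITM3 and 205 for IFITM2. The median over the 41 ISGs tested was 12.4 CPM per kilobase in the core and 7.10 in the invasion zone. Below 1 CPM per kilobase in the core were the effectors MX1 (0.440) and RSAD2 (0.711), the factor IRF9 (0.550), HERC5 (0.830), EPSTI1 (0.853) and CMPK2, which had 0 counts there. The 6 abundant genes had log2 fold changes of -0.99 to -0.52 with the block and none reached 2-fold, and of the low genes MX1 was called.

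The zone difference was seen within each replicate and was larger in replicate 2 for most ISGs. Within replicate 1, the log2 difference between the zones was negative for 39 of 41 ISGs (50.2% of all genes tested), with a median of -0.53 and a range from -1.14 to 0.23. The exceptions were IRF9 and IFI44. Within replicate 2, it was negative for 41 of 41 (50.9% of all genes), with a median of -1.41 and a range from -4.10 to -0.12. The difference was more negative in replicate 2 for 39 of 41 ISGs, compared with 58.4% of all genes, and the exceptions were IFITM2 and EPSTI1. All genes tested also spread further to the low side in replicate 2, with the 5th percentile at -1.21 in replicate 1 and -1.79 in replicate 2. Among the 6 roles the effectors had the widest gap between replicates, with medians of -0.56 and -2.33, and the membrane factors the narrowest, with -0.78 and -0.87. With 1 library per zone and replicate, the difference between the replicates in the size of the zone effect could not be tested.

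ISG levels also differed between the replicates. From replicate 1 to replicate 2 the log2 level differed by a median of -0.31 in the core, where 35 of 41 ISGs were lower, and by -1.21 in the invasion zone, where 41 of 41 were lower. Over all genes tested these medians were 0.00 and -0.03. In edgeR with the zone as the other term, 7 of 41 ISGs (17.1%) were called lower in replicate 2 and 0 higher, compared with 2.67% of all genes called lower. Without the fold minimum, 21 ISGs (51.2%) were lower, compared with 10.6% of all genes. The 7 genes were IFIT1 (-1.44, SE 0.41, adjusted p = 0.0405), MX2 (-1.35, SE 0.35, adjusted p = 0.0300), IFITM1 (-1.35, SE 0.24, adjusted p = 0.00779), OAS2 (-1.33, SE 0.33, adjusted p = 0.0243), SAMD9L (-1.25, SE 0.26, adjusted p = 0.0140), IFI27 (-1.17, SE 0.20, adjusted p = 0.00686) and IRF1 (-1.01, SE 0.14, adjusted p = 0.00357). For IFI27 the replicate difference was larger than the zone difference and similar in both zones. By contrast, IRF7 (-0.17, SE 0.16, adjusted p = 0.474) and BST2 (-0.15, SE 0.08, adjusted p = 0.239) did not pass the threshold between replicates. Replicate number and sequencing depth went together, and their part in these differences cannot be told apart.

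**Figure D3:**
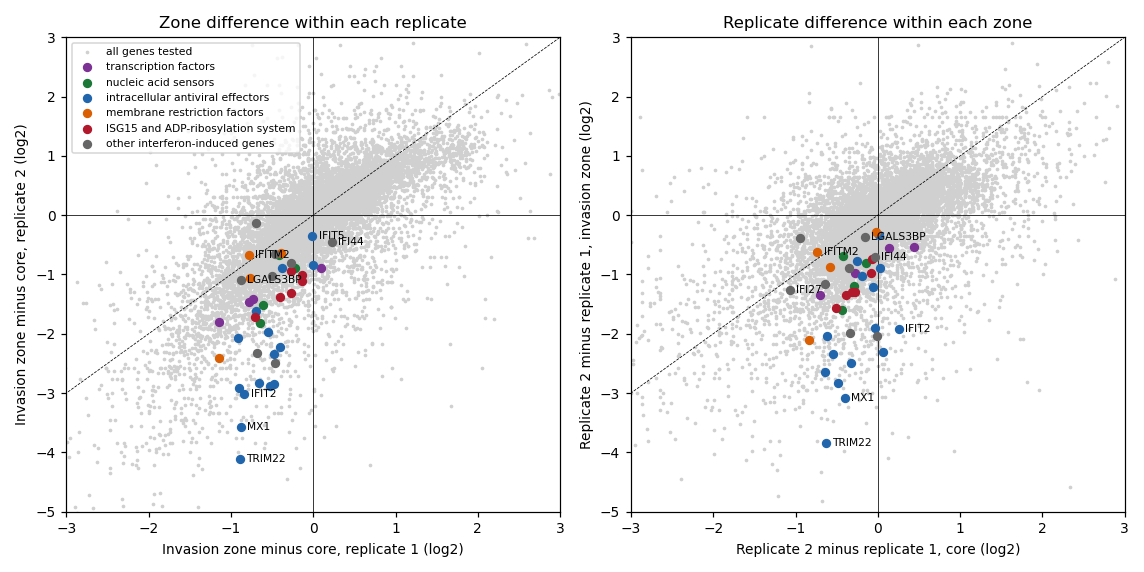
Log2 differences for all genes tested (grey) and the 41 ISGs (colored by role). Left, invasion zone minus core within replicate 1 against replicate 2; right, replicate 2 minus replicate 1 within the core against the invasion zone. The dashed line marks equal differences, 65 and 59 genes lie outside the axes, and most ISGs sit below the dashed line in both panels.

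The rest of the interferon pathway was examined with lists of 60 genes, of which 48 were tested. Without the block 0 were called in either direction in edgeR or limma voom, and 4 were called lower in DESeq2 (all genes 3.53%). At an unadjusted p under 0.05, edgeR had 3 higher and 8 lower, where 1841 and 1928 of the 15529 genes tested were. With the block 2 were called higher (4.17%, all genes 3.41%) and 6 lower (12.5%, all genes 7.06%), and the median without the block was -0.39. The 8 tested receptors and kinases had a median of -0.26. With the block 3 of them were lower at the adjusted threshold (37.5%, all genes 19.4%) and none by 2-fold. JAK2, which had the lowest p without the block, was among these 3 (-0.39, SE 0.11, adjusted p = 0.0203 with the block). Of the 11 tested sensing adaptors and kinases, 1 was called lower with the block (9.09%), near the share of all genes (7.06%). This gene was DHX58 (LGP2), a regulator of RIG-I and MDA5. DHX58 had 17.8 and 10.5 CPM in the core and 9.38 and 3.70 CPM in the invasion zone (-1.14, SE 0.20, adjusted p = 0.00213). With no fold minimum 6 of the 11 were lower (54.5%) and 1 higher (9.09%), where 19.4% of all genes passed in each direction. The higher one, named after its values were seen, was MB21D1 (cGAS), a sensor of cytosolic DNA, which had 22.5 and 33.1 CPM in the core and 36.6 and 61.8 CPM in the invasion zone (0.80, SE 0.11, adjusted p = 0.000612), with both values of the invasion zone above those of the core. Among the 4 tested inhibitors 3 were lower at the adjusted threshold with the block (75%, all genes 19.4%) and none by 2-fold. SOCS1, a brake on JAK kinases that is itself induced by interferon, had 22.8 and 23.3 CPM in the core and 12.9 and 13.7 CPM in the invasion zone (-0.80, SE 0.13, adjusted p = 0.00177). Its replicate difference did not pass the threshold (0.06, SE 0.13, adjusted p = 0.798).

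Among 24 further interferon-induced genes, 23 were tested, and their median change on the log2 scale was -0.54. With the block 5 were called lower (21.7%, all genes 7.06%) and 0 higher (all genes 3.41%). With no fold minimum, 16 passed the adjusted threshold as lower (69.6%) and 2 as higher (8.70%), where 19.4% of all genes passed it in each direction. The 3 with the largest change were GBP2, a guanylate-binding protein of cell-autonomous defense, APOL1, an interferon-induced lipid-binding protein, and PARP14, an ADP-ribosyltransferase of the same family as PARP9. GBP2 had 103 and 76.8 CPM in the core and 36.2 and 12.4 CPM in the invasion zone. APOL1 had 17.8 and 13.9 CPM in the core and 7.54 and 3.11 CPM in the invasion zone. PARP14 had 341 and 317 CPM in the core and 187 and 95.7 CPM in the invasion zone. The zones did not overlap for any of the 3, and the log2 fold changes with the block were -1.97 (SE 0.21, adjusted p = 0.000238), -1.57 (SE 0.23, adjusted p = 0.000889) and -1.28 (SE 0.17, adjusted p = 0.000539). Without the invasion zone library of replicate 2 they were -1.31, -1.08 and -0.81, where the lowest of the 41 ISGs was at -0.97 (IFIT2), and GBP2 was called there (adjusted p = 0.0397, edgeR). GBP2 shares 621 of its 7223 exonic bases with GBP7.

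Interferon transcripts were scarce. Of the 10 ligand genes listed, 7 had 0 counts in every library, among them IFNB1 and IFNG, which allows a level of up to 0.0798 CPM in the deepest library and 0.254 CPM in the shallowest (3 counts, counting error only), and IFNW1 had 1 count. The other two were higher in the invasion zone, opposite to the ISGs. IFNE, an epithelial type I interferon, had 1.26 and 1.52 CPM in the core and 3.04 and 4.03 CPM in the invasion zone (1.33, SE 0.31, adjusted p = 0.00975 with the block), and the zones did not overlap. IFNA1 had 0.279 and 1.32 CPM in the core and 1.09 and 3.70 CPM in the invasion zone (1.68, SE 0.41, adjusted p = 0.0117), with overlapping zones, and it also differed between replicates (1.93, SE 0.41, adjusted p = 0.0148). IFNA1 lies on chromosome 9 at 21440439 to 21441316 (GRCh38), and 557 of its 878 exonic bases lie opposite exons of MIR31HG, a long noncoding RNA gene that spans this region. MIR31HG had 5.72 and 9.61 CPM in the core and 9.25 and 19.6 CPM in the invasion zone, also higher in the invasion zone (log2 fold change 0.85 with the block, adjusted p = 0.00534, edgeR). The counting is not stated to use strand, so reads of the 2 genes cannot be told apart, and IFNA1 also belongs to a family of near-identical genes.

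**Figure D4:**
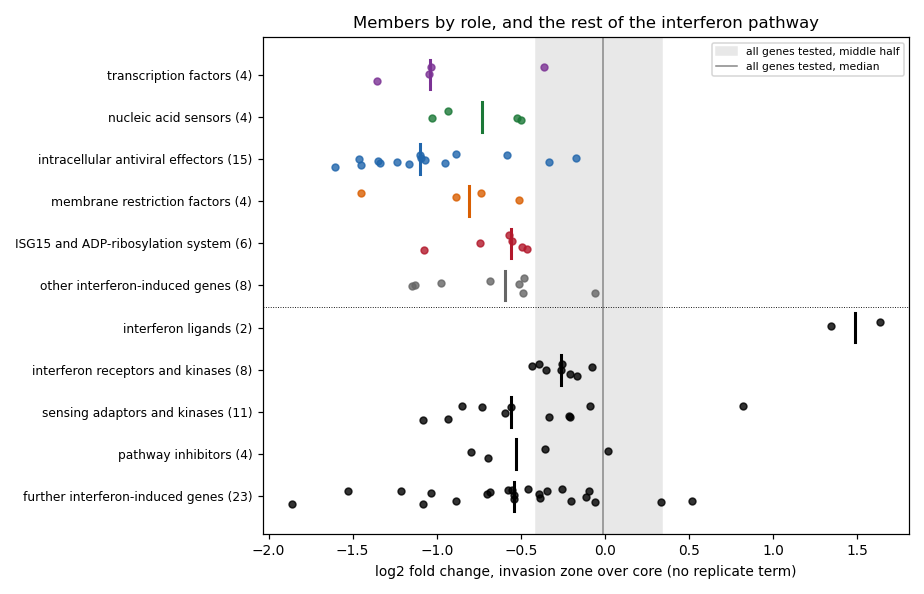
Fitted log2 fold change (invasion zone over core, no replicate term) of each gene tested (points), grouped by role for the ISGs and by list for the rest of the pathway, with the number tested in brackets and a bar at each median. The grey band spans the first to the third quartile of all genes tested (-0.41 to 0.34), and the 2 ligands lie on the opposite side of it from most ISGs.

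ISRE-type cores were found in ISGs with small and with large zone differences. The 21 members with a core had a median log2 fold change of -0.75 with the block, and 8 of them were called lower (38.1%). The 12 tested members with a promoter window but no core had a median of -1.13, and 6 were called lower (50%). Of all genes tested, 7.06% were called lower in this fit. A difference between the 2 sets of members was not tested. Members with several cores were found at both ends of the order, such as IFIT5 with 3 and IFIT1 with 2. The search covered 300 bases, so that elements elsewhere were not looked for, and a match is only a match of letters. Repeats of GAAA with a spacing other than 2 bases did not count as a core. Among the 12 members without a core, the windows of OAS1, RSAD2, DDX58 and XAF1 hold GAAACGAAA, and that of IFI35 holds GAAATGAAA. The split is therefore by this spacing, not by presence or absence of GAAA repeats. The count of cores per promoter and the zone difference are set side by side in the plot of ISRE positions.

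**Figure D5:**
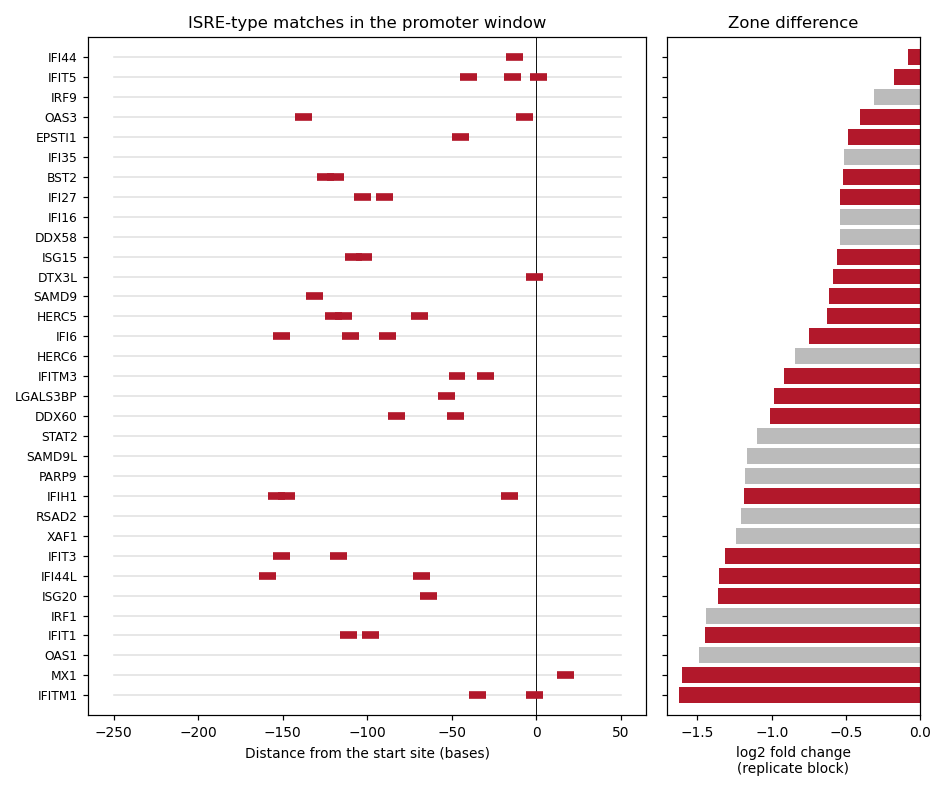
Left, positions of ISRE-type cores (red) relative to the start site in the promoter windows of the 33 ISGs that have a window and were tested. Right, their log2 fold change with the replicate block, red where a core was found and grey where none was, and both colors occur from the smallest to the largest differences.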

How the data were processed

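The core and the invasion zone were each represented by 2 bulk RNAseq libraries. The authors filtered out ribosomal RNA reads with Bowtie, used STAR to align to hg38 and HTSeq-count to count reads with a unique position per gene. The deposited values are raw counts. No versions, annotation release or strand setting were found in the sources used here. Of 56306 rows, 2 repeated rows without counts were left out. The count filter asked for 15 counts over all libraries and, in 2 of them, for the CPM that 10 counts give in a library of median size. The main test was the quasi-likelihood test of edgeR 4.0.16 (R 4.3.3) with TMM scaling (factors 0.985 to 1.009), without a block. Standard errors are the fold change divided by the square root of F. DESeq2 1.42.0 and limma 3.58.1 (voom) were alternatives, beside RLE and upper-quartile scaling, other count filters, other thresholds and each library left out, and the scripts were tested on simulated data. Log2 differences within a replicate or zone used CPM with a prior count of 2.

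The replicate numbers were read as pairs, since a core and its surrounding zone are punched from the same gel, although no label states that a number marks a shared spheroid or day. Deviations from the zone means correlated at r = 0.584 across genes between libraries of the same number (2 pairs). P-values without the block measure the spread between libraries of a zone. Those with the block measure how far the 2 assumed pairs disagree, which leaves little to estimate a spread from. Either spread may be technical. Positions and exon lengths were taken from GENCODE release 44 (GRCh38, 98.1% of identifiers matched) and promoters from RefSeq. The members and lists were chosen with earlier results of these data known. Values per library were printed for each ISG called in the fit with or without the block or between replicates, and for the 3 of each role with the highest mean CPM. Those of IRF9, IFIT5 and IFI44 were added after they were seen. Of each further list, up to 3 called genes with the largest change were named, or else the gene with the lowest p. Some genes of these lists are not reported here. Intervals and floors cover counting error only.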

Additional observations from a re-analysis of the deposited data

How the results depend on the processing

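Over all genes tested, edgeR without the replicate block called 0 higher and 0 lower, and of the ISGs and of the other pathway genes 0 in either direction. They stayed at 0 in limma voom, under RLE or upper-quartile scaling, without the fold minimum, and among genes with 10 or more counts in each library. Pairing the libraries by the replicate block gave 530 higher and 1097 lower genes, with 20 ISGs lower and 2 pathway genes higher and 6 lower. With the replicate block and no fold change minimum these were 3009 and 3007, with 32 ISGs lower and 5 pathway genes higher and 28 lower. At an unadjusted p they were 454 and 909, with 7 ISGs lower and 1 pathway gene higher and 4 lower. Without a count filter they were 427 and 846, with 17 ISGs and 6 pathway genes lower. DESeq2 gave 354 and 548, with 7 ISGs and 4 pathway genes lower, and with the replicate block 427 and 731, with 10 and 6. Limma voom with the replicate block gave 576 and 1088, with 14 ISGs lower and 2 pathway genes higher and 5 lower. The cause of these changes was not tested.

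Leaving out 1 library gave between 0 and 555 higher and between 4 and 1119 lower genes, 0 to 29 lower ISGs, and 0 to 1 higher and 0 to 15 lower pathway genes. The ISG median ranged from -1.60 without invasion zone replicate 1 to -0.45 without invasion zone replicate 2, and was -0.60 without core replicate 1. Between replicates, 7 ISGs were called in edgeR, all lower in replicate 2 (17.1%, all genes 2.67%). With no fold change minimum 21 were lower (51.2%, all genes 10.6%). Without a count filter 11 were called, and in DESeq2 2. For these last 2 fits no share over all genes is given, so their counts cannot be set against one.

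Single ISGs changed sign under a few alternatives. Over the 4 fits without 1 library, the log2 fold change ranged from -0.94 to 0.0909 for OAS3, from -1.31 to 0.00676 for USP18 and from -0.46 to 0.24 for IFI44, with the positive value without invasion zone replicate 2. It ranged from -1.33 to 0.14 for IFI27 and from -0.86 to 0.10 for EPSTI1, with the positive value without core replicate 1. IFI44 was at 0.0151 in limma voom with the replicate block. None of these 5 genes was called in edgeR with or without the block. An arm of 1 library was assumed to vary like the other. Depth limits genes such as MX1, RSAD2 and CMPK2, with 6, 6 and 0 counts in the shallowest library.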
